A study of Mus musculus with 12 samples.

Results

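The spindle assembly checkpoint is the surveillance system that holds a dividing cell in mitosis until every chromosome is attached to the spindle. MPS1, the kinase encoded by Ttk, starts the signal at unattached kinetochores, where the scaffold kinase BUB1 and its partner BUB3 are recruited. MAD1 (gene Mad1l1) then converts MAD2 (gene Mad2l1) to the form that, with BUBR1 (gene Bub1b) and BUB3, seizes CDC20, the activator of the anaphase-promoting complex (APC/C), a ubiquitin ligase. Aurora B (gene Aurkb) destabilises faulty attachments and shugoshin 1 (gene Sgo1) protects the cohesion of sister centromeres. An MPS1 inhibitor blocks the kinase activity, so cells leave mitosis with chromosomes that are not properly attached. RNA counts measure the transcripts of these genes and not the activity of the kinase.

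Ttk, Bub1, Bub1b, Bub3, Mad1l1, Mad2l1, Cdc20, Aurkb and Sgo1 were taken by symbol from a table of 45777 genes, and all 9 were found. All 9 also passed the filter on low counts, which left 17885 genes for testing. On GRCm38.p6, Ttk lies at chr9:83834651-83872390 on the plus strand, and the others are on chromosomes 2 (Bub1 and Bub1b), 4 (Cdc20), 5 (Mad1l1), 6 (Mad2l1), 7 (Bub3), 11 (Aurkb) and 17 (Sgo1). The hosts were male 129S2/SvPasCrl mice aged 8 weeks, which carried subcutaneous tumours of 393P, a murine line of lung cancer cells. Each of the 4 groups held 3 libraries. In the first, cells reconstituted with MAVS, the mitochondrial adaptor of cytosolic RNA sensors, were exposed to the MPS1 inhibitor (MPS1i) BAY-1217389 at 5 mg/kg, 2 times daily for 2 days, with harvest on the next day. In the second, reconstituted tumours received the control treatment, which the titles call Veh. In the third, MAVS knockout tumours, titled Luc, which the labels do not explain, received the same inhibitor course. In the fourth, MAVS knockout tumours received the control treatment. Every group thus came from the same parental line, but the MAVS genotypes were 2 separate cell populations, and any further difference between these cannot be told apart from MAVS. The labels call the libraries replicates without stating separate animals, so p-values measure only the spread between these libraries, which may be technical.

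Library totals ran from 52983715 to 69108411 counts, and no library repeated another of its group within sampling noise. Mavs RNA lay between 50.1 and 62.8 CPM (counts scaled to library size) in reconstituted inhibitor-treated tumours and between 59.1 and 85.1 CPM in reconstituted controls. It lay between 39.4 and 43.5 CPM in knockout inhibitor-treated tumours and between 40.5 and 45.7 CPM in knockout controls, below all 6 reconstituted libraries. Of the 7 epithelial tumour cell markers, 6 passed the filter and 1 was at 0 in all libraries. Their summed level was 4749 to 7612 CPM across the groups. Markers of the host's fibroblasts, macrophages and T cells were present as well, so these are bulk tumours, in which fewer cells of a type and less RNA per cell cannot be told apart. The inhibitor-treated reconstituted library 1 and the reconstituted control library 2 stood at opposite ends of the leading axis of variation, which held 40.4% of the variance. Summed skeletal muscle markers were 2324 CPM in the first of these libraries and 1.45 CPM in the second. The part of this difference in the checkpoint genes was not tested; with both libraries left out, edgeR again called none of them in any comparison.

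Promoters of checkpoint genes often carry a cell cycle homology region (CHR), which the DREAM and MuvB complexes bind, and CCAAT boxes, which NF-Y binds, and together these give transcription that peaks late in the cell cycle. RefSeq windows of GRCm38.p6, from 250 bases before to 50 bases after the start site, were found for 8 of the 9 genes, in 10 windows. The 3 below are shown because they cover the drug target and the checkpoint's target, each with both motifs, and Bub1, which lacks the CHR letters searched. Bub1 correlated with Ttk at a Pearson r of 0.77 over the 12 libraries. Letters run 5′ to 3′ on the gene's strand, and capitals mark TTTGAA, the CHR searched, and CCAAT on either strand (TTCAAA and ATTGG when read from the opposite strand).
Ttk, chr9:83834439-83834738, plus strand: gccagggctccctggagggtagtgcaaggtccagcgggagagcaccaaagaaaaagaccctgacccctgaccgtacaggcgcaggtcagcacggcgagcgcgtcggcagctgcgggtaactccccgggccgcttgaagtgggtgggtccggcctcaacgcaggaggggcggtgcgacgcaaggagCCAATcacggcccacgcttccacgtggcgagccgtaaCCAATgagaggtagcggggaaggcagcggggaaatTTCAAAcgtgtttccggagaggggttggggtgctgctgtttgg
Cdc20, chr4:118437294-118437593, minus strand: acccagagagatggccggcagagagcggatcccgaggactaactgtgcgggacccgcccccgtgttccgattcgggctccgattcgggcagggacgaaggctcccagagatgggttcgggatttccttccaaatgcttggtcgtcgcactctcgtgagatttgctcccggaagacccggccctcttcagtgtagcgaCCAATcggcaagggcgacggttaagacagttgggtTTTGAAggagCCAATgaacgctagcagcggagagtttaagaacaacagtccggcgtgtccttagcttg
Bub1, chr2:127831810-127832109, minus strand: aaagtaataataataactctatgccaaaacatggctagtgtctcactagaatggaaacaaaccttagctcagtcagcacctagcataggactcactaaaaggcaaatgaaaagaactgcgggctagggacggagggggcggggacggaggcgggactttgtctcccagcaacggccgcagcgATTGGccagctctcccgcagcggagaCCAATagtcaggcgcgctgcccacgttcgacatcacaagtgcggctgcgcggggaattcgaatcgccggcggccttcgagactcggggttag

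With the start site counted as 0, the Ttk window held the CHR letters on the minus strand at 7 to 12, and CCAAT at -65 to -61 and at -28 to -24. The Cdc20 window held the CHR letters at -18 to -13, between CCAAT boxes at -53 to -49 and at -8 to -4. The Bub1 window held CCAAT letters at -68 to -64 and at -42 to -38. TTTGAA was found for 4 of the 8 genes (Ttk, Bub1b, Bub3 and Cdc20). By window it was in 5 of their 10, against 17.9% of all 32851 promoter windows. CCAAT was found for 6 of the 8, the same 4 with Bub1 and Sgo1, and in 7 of the 10 windows, against 37.4% of all windows. Bub3 has 2 windows, which overlap and hold the same sites. A further CHR form, TTTAAA, and the E2F letters TTTCCCGC and TTTGGCGC were in no window of these genes, and in 13.2%, 1.07% and 0.514% of all windows. No other CHR letters were searched, so a window without these may hold another form. The searched motifs share no position in these windows. A match describes letters only and shows no binding.

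Levels between genes were compared per kilobase of exon, over all 12 libraries. Bub3 was the most abundant, at a median of 45.4 CPM per kb (range 43.3 to 60.3), and its lowest library lay above the highest of Mad2l1, at 28.6 CPM per kb (range 24.2 to 34.1). Cdc20 followed at 22.7 CPM per kb. Bub1b, Mad1l1 and Aurkb came next with medians of 15.8, 15.5 and 15.4 CPM per kb, and neighbours in this part of the order overlapped. Bub1 stood at 11.4 CPM per kb (range 9.90 to 16.4), above every library of Ttk. Ttk, at 6.30 CPM per kb (range 5.25 to 7.75), and Sgo1, at 5.11 CPM per kb (range 4.39 to 6.78), were the lowest and overlapped. The drug target was therefore among the least abundant of the 9 transcripts, and the adaptor shared by the BUB kinases was the most abundant.

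Ttk had 15.2, 18.6 and 18.8 CPM in reconstituted inhibitor-treated tumours and 22.5, 20.4 and 16.8 CPM in reconstituted controls. It had 20.1, 18.1 and 17.5 CPM in knockout inhibitor-treated tumours and 18.4, 15.3 and 16.3 CPM in knockout controls. The groups overlapped in every comparison, and the highest library was a reconstituted control. Means were 17.6 ± 2.02 CPM in reconstituted inhibitor-treated and 19.9 ± 2.87 CPM in reconstituted control tumours, and 18.6 ± 1.37 CPM in knockout inhibitor-treated and 16.7 ± 1.60 CPM in knockout control tumours (SD, n = 3 each). The log2 difference of inhibitor minus control was -0.18 ± 0.13 (SE) in reconstituted tumours (edgeR adjusted p = 0.353) and 0.16 ± 0.13 in knockout tumours (edgeR adjusted p = 1.00). Neither passed the threshold of an adjusted p of 0.05. Their 95% intervals, -0.47 to 0.11 and -0.13 to 0.44, span folds from 0.724 to 1.36. Single libraries of either group moved the first of these estimates. It was -0.09 without reconstituted control library 1, -0.09 without inhibitor-treated library 1 and -0.29 without control library 3. Its edgeR adjusted p lay between 0.153 and 0.740 over all libraries left out in turn. In knockout tumours the Ttk difference was 0.10 without inhibitor-treated library 1. Averaged over genotypes, the inhibitor's difference for Ttk was -0.01 ± 0.09.

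**Figure D1:**
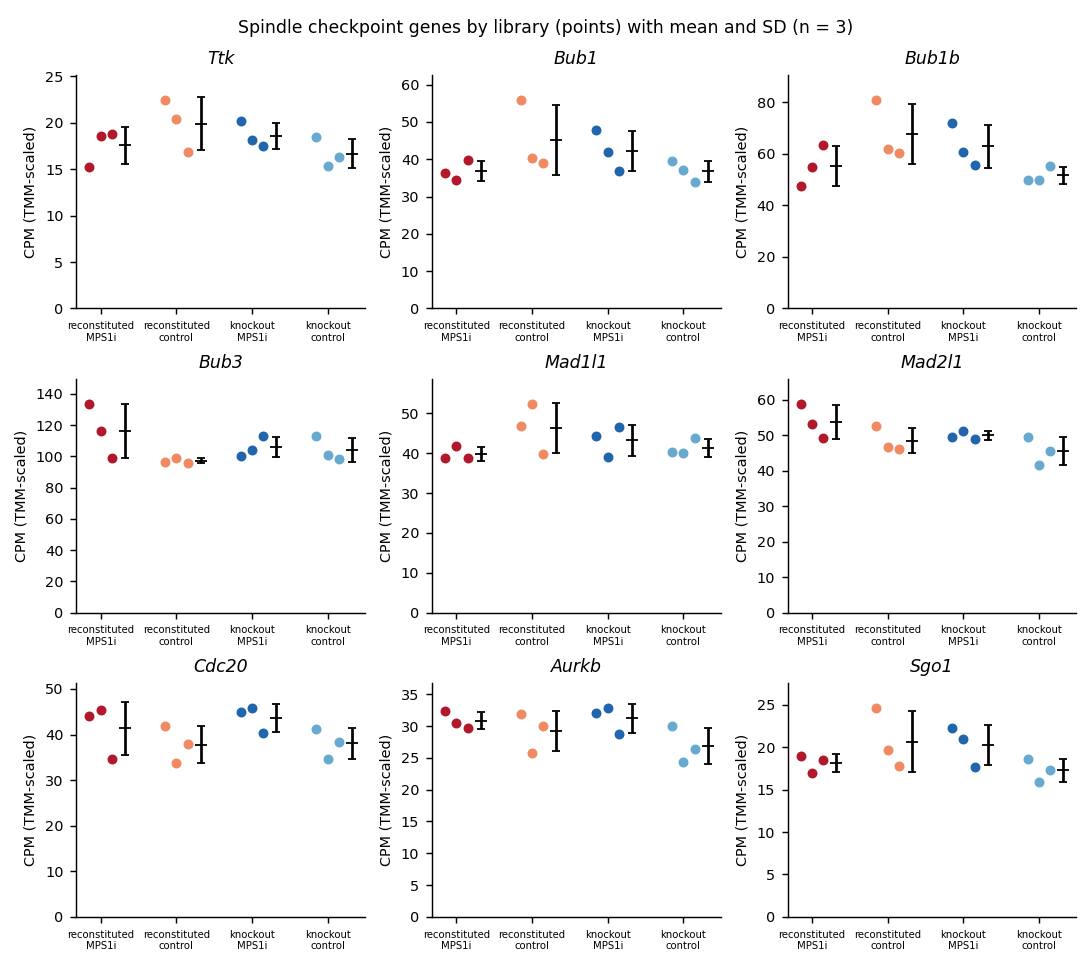
Level of each of the 9 checkpoint genes in every library, in CPM, by group, with the 3 libraries of each group as points and the mean with SD. Ttk lies between 15.2 and 22.5 CPM in all 12 libraries, and Bub1b is the gene whose knockout controls lie below all reconstituted controls.

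Under the inhibitor in reconstituted tumours, the genes lay on both sides of 0, 4 higher and 5 lower, with a median log2 difference of -0.18. No member was called by edgeR's quasi-likelihood test, and 0% of the 17885 genes tested were. No member had groups that did not overlap, as 29.5% of all genes did. At an unadjusted p below 0.05 there was 1 member, Bub3, beside 32.6% of all genes. DESeq2 called 3490 genes there and no member.

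Bub1, which places the checkpoint proteins on kinetochores, had 36.2, 34.5 and 39.8 CPM in inhibitor-treated and 56.0, 40.4 and 38.9 CPM in control reconstituted tumours. Bub1b, which encodes the BUBR1 subunit of the checkpoint complex, had 47.6, 54.7 and 63.4 CPM in inhibitor-treated and 81.0, 61.7 and 60.1 CPM in control tumours. For both genes the control library 1 was the highest, and the groups overlapped because the inhibitor-treated library 3 lay above at least 1 control. Their log2 differences were -0.29 ± 0.14 each (edgeR adjusted p = 0.182 for Bub1 and 0.178 for Bub1b). Without control library 1 they were -0.11 for Bub1 and -0.14 for Bub1b, and with other libraries left out they reached -0.39 and -0.40.

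Bub3, which carries BUB1 and BUBR1 to kinetochores, had a difference of the opposite sign. It had 133.7, 116.0 and 99.1 CPM in inhibitor-treated and 96.5, 99.2 and 96.0 CPM in control reconstituted tumours. The inhibitor-treated libraries 1 and 2 were above all controls, and library 3 was level with them. The log2 difference was 0.26 ± 0.10 (95% interval 0.03 to 0.49; edgeR adjusted p = 0.116). Without inhibitor-treated library 3 it was 0.36 (edgeR adjusted p = 0.0120), and without library 1 it was 0.14. The first is the only call of a member in this comparison with 1 library left out, in a fit that called 5683 genes.

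Mad1l1, the platform that converts MAD2 at the kinetochore, had 38.8, 41.9 and 38.9 CPM in inhibitor-treated and 47.0, 52.4 and 39.8 CPM in control tumours, a log2 difference of -0.22 ± 0.11. Sgo1, the centromeric cohesion protector, had 18.9, 16.9 and 18.5 CPM in inhibitor-treated and 24.6, 19.6 and 17.8 CPM in control tumours, a log2 difference of -0.19 ± 0.13. Both pairs of groups overlapped. Mad2l1, the subunit that binds CDC20, had 58.9, 53.1 and 49.1 CPM in inhibitor-treated and 52.5, 46.8 and 46.2 CPM in control tumours, a log2 difference of 0.15 ± 0.09. Cdc20, the APC/C activator that the checkpoint holds back, had 44.0, 45.3 and 34.7 CPM in inhibitor-treated and 41.8, 33.7 and 37.8 CPM in control tumours, a log2 difference of 0.13 ± 0.12. Aurkb, the error correction kinase, had 32.3, 30.5 and 29.7 CPM in inhibitor-treated and 31.8, 25.8 and 30.03 CPM in control tumours, a log2 difference of 0.08 ± 0.11. The groups of these 3 genes overlapped too, with the highest library in the inhibitor-treated group. Single libraries moved these values as well: the difference was -0.05 for Sgo1 without control library 1 and -0.12 for Mad1l1 without control library 2, and 0.08 for Mad2l1 without inhibitor-treated library 1. Cdc20 was at 0.06 without control library 2. For none of the 5 genes did the difference pass (edgeR adjusted p from 0.174 for Mad1l1 to 0.637 for Aurkb).

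In knockout tumours all 9 genes had positive differences under the inhibitor, from 0.02 for Bub3 to 0.28 for Bub1b, with a median of 0.20 beside a median of -0.004 over all genes tested. None was called by edgeR (adjusted p = 1.00 for each, and 0% of the 17885 genes called), none had an unadjusted p below 0.05 (1.71% of all genes did), and DESeq2 called 3 genes and no member. Bub1b had 72.1, 60.7 and 55.8 CPM in inhibitor-treated and 49.9, 49.8 and 55.4 CPM in control knockout tumours. This was the only member whose groups did not overlap, 1 of 9 beside 8.73% of all genes in either direction, and its nearest libraries were at 55.8 CPM (inhibitor-treated) and 55.4 CPM (control). Without inhibitor-treated library 1 its difference was 0.17. Aurkb had 32.1, 32.8 and 28.7 CPM in inhibitor-treated and 29.9, 24.3 and 26.5 CPM in control knockout tumours, a log2 difference of 0.21 ± 0.11. Sgo1 had 22.2, 20.96 and 17.6 CPM in inhibitor-treated and 18.6, 15.9 and 17.3 CPM in control knockout tumours, a log2 difference of 0.23 ± 0.13. Cdc20, with 44.9, 45.8 and 40.2 CPM in inhibitor-treated and 41.2, 34.6 and 38.3 CPM in control knockout tumours, differed by 0.20 ± 0.12. In each of these 3 genes, 2 treated libraries lay above all controls and the groups overlapped.

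Bub1 had 47.9, 41.8 and 36.9 CPM in inhibitor-treated and 39.5, 37.1 and 33.9 CPM in control knockout tumours, a log2 difference of 0.20 ± 0.14. Mad2l1 had 49.5, 51.3 and 49.1 CPM in inhibitor-treated and 49.6, 41.7 and 45.5 CPM in control knockout tumours, a log2 difference of 0.13 ± 0.09. For both genes the groups overlapped. Bub3 had 100.5, 104.3 and 113.0 CPM in inhibitor-treated and 113.0, 100.9 and 98.6 CPM in control knockout tumours. Mad1l1 had 44.3, 39.0 and 46.5 CPM in inhibitor-treated and 40.2, 40.0 and 43.9 CPM in control knockout tumours. The groups of Bub3 and Mad1l1 overlapped, with log2 differences of 0.02 ± 0.10 and 0.06 ± 0.11.

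**Figure D2:**
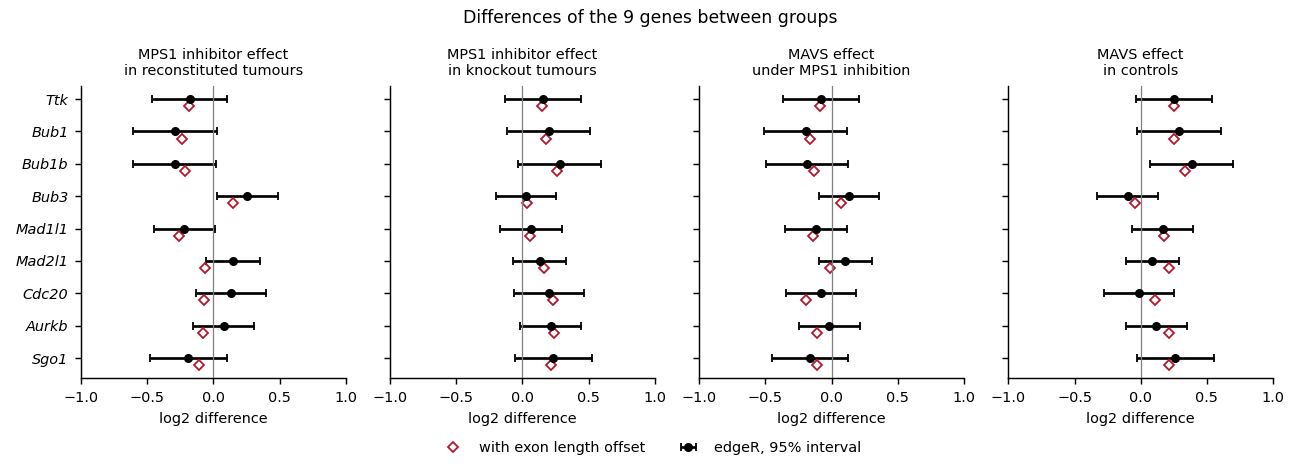
Log2 differences of the 9 checkpoint genes in 4 comparisons, each on the x axis with its 95% interval from the edgeR fit (black) and the estimate with an exon length offset (red diamonds). Bub3 in inhibitor-treated against control reconstituted tumours and Bub1b in reconstituted against knockout controls are the intervals that leave out 0.

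Comparisons of MAVS genotype gave no member call either. Between the control groups, 7 of 9 genes had positive differences of reconstituted minus knockout, with a median of 0.17. edgeR called no member and 0.14% of the 17885 genes, 1 member and 18.7% of all genes had an unadjusted p below 0.05, and DESeq2 called 719 genes and no member. The member was Bub1b, at 81.0, 61.7 and 60.1 CPM in reconstituted and 49.9, 49.8 and 55.4 CPM in knockout controls. All reconstituted libraries lay above all knockout libraries, 1 of 9 members without overlap beside 31.1% of all genes in either direction, and the log2 difference was 0.39 ± 0.14 (95% interval 0.07 to 0.70; edgeR adjusted p = 0.206). Ttk differed by 0.25 ± 0.13, Bub1 by 0.29 ± 0.14 and Sgo1 by 0.26 ± 0.13 in the same comparison (edgeR adjusted p from 0.296 to 0.314). Without reconstituted control library 1 the 4 differences were 0.24 for Bub1b, 0.16 for Ttk, 0.11 for Bub1 and 0.12 for Sgo1. Bub3 and Cdc20 were the 2 negative genes, at -0.10 ± 0.10 and -0.01 ± 0.12.

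Under the inhibitor, 7 of 9 genes had negative differences of reconstituted minus knockout, with a median of -0.08 and a range from -0.20 for Bub1 to 0.13 for Bub3. edgeR called no member and 0.649% of all genes, no member and 19.7% of all genes had an unadjusted p below 0.05, and DESeq2 called 1175 genes and no member. All members overlapped between the groups, while 20.7% of all genes did not. The smallest adjusted p of a member was 0.442, for Bub1. Averaged over treatments, edgeR called no member and 1.56% of all genes, while DESeq2 called 963 genes and no member. There the members lay between -0.04 and 0.10, and none had an unadjusted p below 0.05 beside 15.1% of all genes. The genes called there included 2 of the 6 epithelial tumour cell markers tested, both lower in reconstituted tumours and named here after their values were seen. Epcam, an epithelial adhesion molecule, averaged 139 ± 10.0 CPM in reconstituted and 182 ± 19.1 CPM in knockout inhibitor-treated tumours, and 140 ± 6.14 CPM in reconstituted and 174 ± 15.3 CPM in knockout controls (SD, n = 3 each). All 6 reconstituted libraries lay below all 6 knockout libraries, and the averaged log2 difference was -0.35 ± 0.07 (edgeR adjusted p = 0.0310). Cldn4, a tight junction gene, averaged 21.96 ± 2.09 CPM in reconstituted and 26.5 ± 5.86 CPM in knockout inhibitor-treated tumours, and 16.3 ± 1.27 CPM in reconstituted and 29.9 ± 4.34 CPM in knockout controls (SD, n = 3 each). Its averaged log2 difference was -0.57 ± 0.11 (edgeR adjusted p = 0.0285), and the inhibitor-treated groups overlapped. Over the 6 epithelial markers the median was -0.06. The part of these differences in the checkpoint genes was not tested.

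The interaction asks whether the inhibitor's effect differed between the genotypes. It was negative for 7 of 9 genes, with a median of -0.28 beside 0.0046 over all genes. edgeR called no member and 0% of all genes, although 3 members and 24.7% of all genes had an unadjusted p below 0.05, and DESeq2 called 1238 genes and no member. The 3 members were Bub1b at -0.57 ± 0.20, Bub1 at -0.49 ± 0.20 and Sgo1 at -0.42 ± 0.19 (edgeR adjusted p = 0.149, 0.175 and 0.192). Ttk stood at -0.34 ± 0.18 (edgeR adjusted p = 0.270). Leaving out the inhibitor-treated reconstituted library 3 gave Bub1b an interaction of -0.69 (edgeR adjusted p = 0.0353), in a fit that called 4005 genes, and leaving out the reconstituted control library 1 gave -0.43. Over all libraries left out in turn its adjusted p reached 0.337. Without the same control library, Bub1 stood at -0.31. The inhibitor comparisons and the MAVS comparisons share their libraries, so their directions are not independent of each other. Averaged over genotypes, the inhibitor's differences lay between -0.08 for Mad1l1 and 0.16 for Cdc20, with no member and 0% of all genes called by edgeR. No member and 7.82% of all genes then had an unadjusted p below 0.05, and DESeq2 called 1 gene, no member.

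The 9 genes did not vary as 1 block across libraries. Over the 12 libraries, log2 CPM of Ttk correlated with Bub1b (Pearson r = 0.83), Bub1 (0.77) and Sgo1 (0.75), less with Mad1l1 (0.58), and little with Aurkb (0.32), Mad2l1 (0.18) and Cdc20 (0.11). Bub3 ran the other way (-0.41). Mad2l1, Cdc20 and Aurkb correlated with each other at 0.71 to 0.81. These are descriptions of 12 libraries that share 4 group means, depth and the length trend given next. The genes most like Ttk over the 12 libraries, among 11998 genes whose mean log2 CPM was 1 or more and whose symbols were not of the Gm-number, Rik or LOC kind given to predicted genes, were Tex9 (0.94), Foxm1 (0.91), Uhrf1 (0.90), Chaf1a (0.90) and Prrc2a (0.90). Foxm1 encodes a transcription factor of mitotic genes, and Uhrf1 and Chaf1a encode factors of DNA methylation maintenance and of chromatin assembly at replication. Among the 11998 genes, Bub1b ranked 58, Bub1 191 and Sgo1 254 in correlation with Ttk. With group means taken out the nearest were Tex9 (0.94), Tfrc (0.93), Rtel1 (0.92), Myh10 (0.92) and E2f3 (0.92). Bub1b, Bub1 and Sgo1 then correlated with Ttk at 0.74, 0.68 and 0.64 and ranked 318, 587 and 751. Exon lengths were 2794 bases for Tex9, 4652 for Foxm1, 3667 for Uhrf1, 5535 for Chaf1a and 6888 for Prrc2a. Tfrc, Rtel1, Myh10 and E2f3 had 4890, 4424, 7791 and 5361 bases. The nearest genes were not sought again with the length trend taken out.

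The genes that correlated least with Ttk were also the shortest. Exon lengths were 1725 bases for Mad2l1, 1793 for Cdc20 and 1950 for Aurkb, 2218 for Bub3 and 2640 for Mad1l1, and 2902 for Ttk, 3421 for Bub1, 3628 for Sgo1 and 3668 for Bub1b. All genes showed a trend with length. In reconstituted tumours under the inhibitor, the median log2 difference was 0.32 for 2983 genes of up to 2 kb, 0.06 for 2589 genes of 2 to 3 kb and -0.18 for 6388 genes over 3 kb. In knockout tumours the same medians were -0.06, -0.003 and 0.03. The median deviation of long minus short genes was -0.54, -0.31 and 0.12 in the reconstituted inhibitor-treated libraries and 0.32, 0.25 and 0.18 in reconstituted controls. It was 0.24, -0.01 and -0.10 in knockout inhibitor-treated libraries and -0.16, -0.03 and 0.05 in knockout controls. Library 1 of the reconstituted inhibitor-treated tumours was thus the lowest in long genes, and all reconstituted controls were high.

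**Figure D3:**
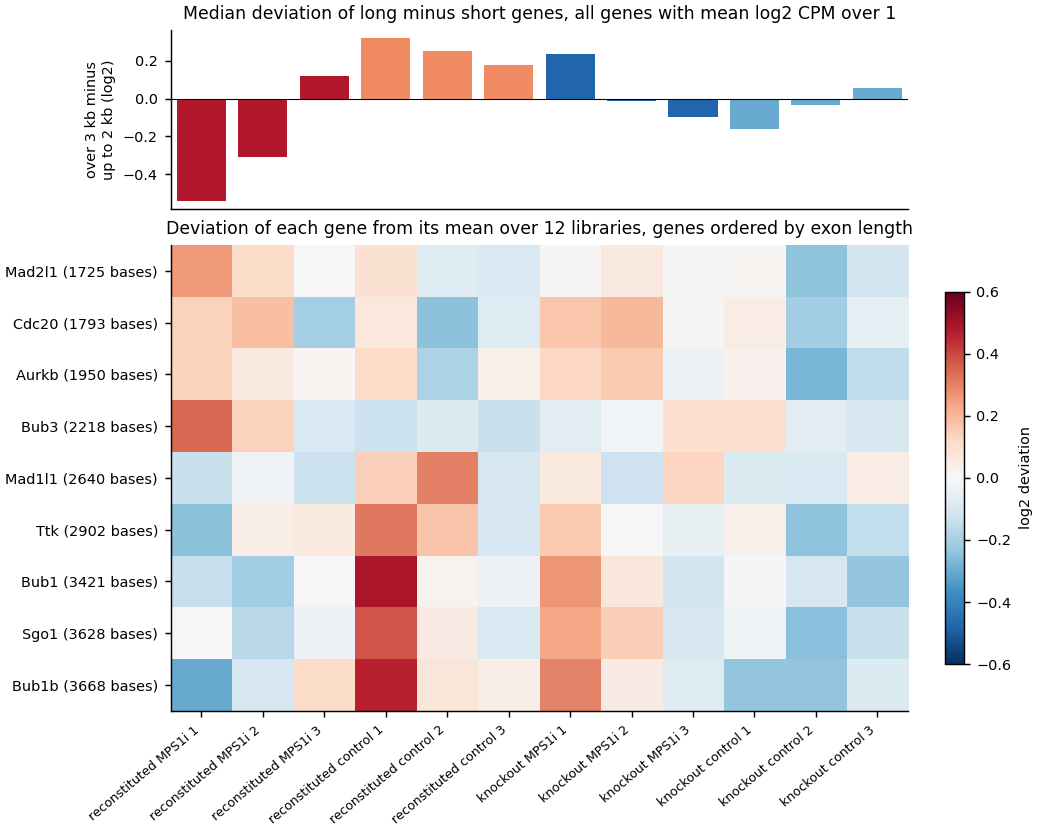
Upper panel, median log2 deviation of genes over 3 kb minus genes up to 2 kb in each library; lower panel, log2 deviation of each checkpoint gene from its mean over 12 libraries, ordered by exon length. The reconstituted inhibitor-treated library 1, at -0.54 in the upper panel, is low in Ttk and Bub1b and high in Bub3 and Mad2l1.

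**Figure D4:**
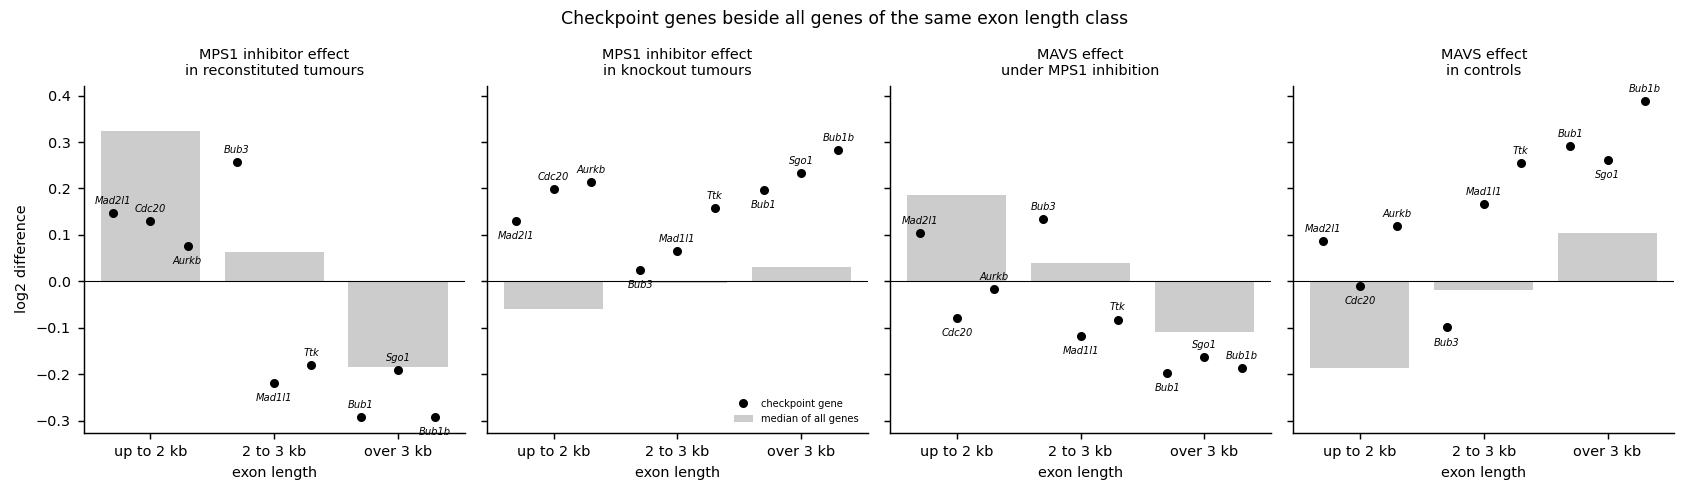
Log2 differences (y axis) of the 9 checkpoint genes (points) by exon length class (x axis), with the median of all genes of the class as bars. In reconstituted tumours Bub1, Bub1b and Sgo1 stand at or below their class median of -0.18 and Mad2l1, Cdc20 and Aurkb below theirs of 0.32, and in knockout tumours all 9 genes stand above their class medians.

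Set against their own length class, the short members also stood below it: in reconstituted tumours Mad2l1, Cdc20 and Aurkb had 0.15, 0.13 and 0.08 beside a class median of 0.32. Beside the median of 0.06 for genes of 2 to 3 kb, Ttk (-0.18) and Mad1l1 (-0.22) stood below and Bub3 (0.26) above. A fit with each library's length trend as an offset, chosen after seeing the data, put 8 of 9 members below 0 in this comparison, with a median of -0.11, and Bub3 at 0.15 ± 0.07 above it. Mad2l1, Cdc20 and Aurkb then stood at -0.06, -0.07 and -0.08, while Ttk stayed at -0.19 ± 0.13. In knockout tumours the 9 members remained positive with the offset, with a median of 0.18. Of the differences of reconstituted minus knockout, 8 of 9 were positive between controls (median 0.21) and 8 of 9 negative under the inhibitor (median -0.11), and the interaction was negative for 8 of 9 (median -0.32). edgeR called no member in any of these fits. The length trend itself differed between the groups compared, so the offset may also take out part of a difference between them. By design it brought the class medians near 0, at 0.01, -0.003 and -0.01 in reconstituted tumours under the inhibitor. With the offset, the correlation with Ttk was 0.76 for Mad2l1, 0.53 for Cdc20 and 0.63 for Aurkb, 0.83 for Bub1b and -0.29 for Bub3, over the same 12 libraries.

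Ttk was also set against 24 other mitotic genes within each library, as its log2 CPM minus their mean. The value was -1.99, -1.67 and -1.77 in reconstituted inhibitor-treated and -1.82, -1.65 and -1.89 in reconstituted control libraries. It was -1.83, -1.87 and -1.77 in knockout inhibitor-treated and -1.72, -1.85 and -1.82 in knockout control libraries. All groups overlapped. Inhibitor minus control within genotypes gave -0.03 (exact two-sided permutation test over 400 arrangements, p = 0.665; smallest possible p 0.005). Reconstituted minus knockout within treatments gave 0.01 (exact two-sided permutation test, p = 0.89). With the length offset the values were -0.05 (exact permutation p = 0.525) and 0.00 (exact permutation p = 0.96).

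**Figure D5:**
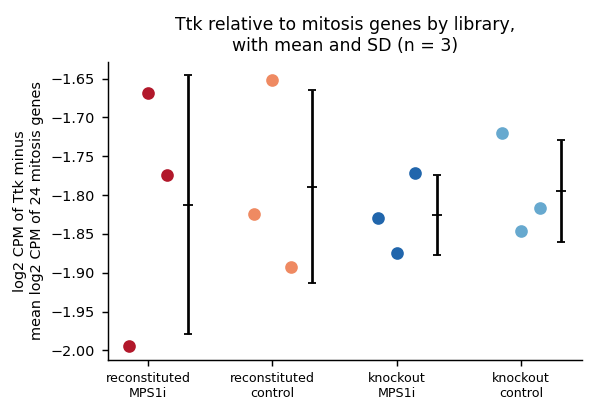
Log2 CPM of Ttk minus the mean log2 CPM of 24 mitotic genes (y axis) in each library (points), with mean and SD of each group (n = 3). The group means lie between -1.83 and -1.79, and the inhibitor-treated reconstituted libraries spread from -1.99 to -1.67.

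The other genes of the pathway were taken as 4 lists. No gene of them, 28 of the kinetochore and checkpoint network, 18 of the APC/C and its regulators, 24 of mitosis and 20 of S phase, was called by edgeR in any of the 7 comparisons. Under the inhibitor in reconstituted tumours, 19 of 28 network genes and 18 of 24 mitotic genes had negative differences, with medians of -0.09 and -0.17, and in knockout tumours 25 of 28 and 24 of 24 were positive, with medians of 0.19 and 0.19. For S phase genes, 13 of 20 were negative in reconstituted tumours (median -0.10) and 19 of 20 positive in knockout tumours (median 0.13). Of the APC/C list, 8 of 18 were negative in reconstituted tumours (median 0.08) and 12 of 18 were positive in knockout tumours (median 0.01). Over all genes tested the medians were -0.005 and -0.004. Mean log2 deviations of the mitotic list were 0.18, 0.07 and -0.08 in knockout inhibitor-treated and -0.06, -0.20 and -0.14 in knockout control libraries. In reconstituted tumours they were -0.06, -0.10 and 0.03 in inhibitor-treated and 0.33, 0.02 and -0.02 in control libraries. Both pairs of groups overlapped. For the network list in knockout tumours, the lowest inhibitor-treated library (-0.0430) lay just above the highest control (-0.0441). In these comparisons 11, 6, 9 and 5 genes of the network, APC/C, mitosis and S phase lists had an unadjusted p below 0.05 in reconstituted tumours, beside 32.6% of all genes, and 4, 0, 5 and 2 did in knockout tumours, beside 1.71% of all genes. With both libraries at the ends of the leading axis left out, 20 of 28 network genes and 20 of 24 mitotic genes were negative in reconstituted tumours, with medians of -0.11 and -0.22. Genes of a list share their libraries, so their signs are not independent of each other.

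Between the control groups, differences of reconstituted minus knockout were positive for 22 of 28 network genes (median 0.26), 21 of 24 mitotic genes (median 0.27) and 19 of 20 S phase genes (median 0.24), and for 8 of 18 APC/C genes (median -0.02). Of the network, APC/C, mitosis and S phase lists, 14, 2, 12 and 8 genes had an unadjusted p below 0.05, beside 18.7% of all genes, and the median over all genes was 0.003. Differences of reconstituted minus knockout under the inhibitor were negative for 15 of 28 network genes (median -0.04) and 20 of 24 mitotic genes (median -0.12). They were negative for 9 of 20 S phase genes (median 0.008) and 9 of 18 APC/C genes (median 0.01). Of the network, APC/C, mitosis and S phase lists, 1, 2, 0 and 0 genes then had an unadjusted p below 0.05, beside 19.7% of all genes. The interaction was negative for 21 of 28 network genes (median -0.27), 21 of 24 mitotic genes (median -0.37), 17 of 20 S phase genes (median -0.23) and 9 of 18 APC/C genes (median -0.003). There 11, 5, 11 and 5 genes of the same lists had an unadjusted p below 0.05, beside 24.7% of all genes. The interaction uses the libraries of both MAVS comparisons, so their directions are not independent of it.

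Values for marker lists of the tumour's cell types stand beside these, and edgeR called no marker in the 4 comparisons that follow. Under the inhibitor in reconstituted tumours the difference was positive for 7 of 7 skeletal muscle markers (median 1.93), 4 of 4 red blood cell markers (0.99), 5 of 5 T cell markers (0.95), 4 of 4 neutrophil markers (0.65), 5 of 6 macrophage markers (0.19) and 4 of 6 epithelial markers (0.31). It was negative for 8 of 8 fibroblast markers (median -0.35) and 5 of 5 endothelial markers (-0.31). In knockout tumours the inhibitor's difference was positive for 7 of 7 muscle markers (median 1.26), 4 of 4 red blood cell markers (0.44) and 3 of 5 T cell markers (0.09). It was negative there for 6 of 8 fibroblast markers (median -0.12), 4 of 5 endothelial markers (-0.21), 6 of 6 macrophage markers (-0.20), 3 of 4 neutrophil markers (-0.33) and 4 of 6 epithelial markers (-0.02). Between the control groups, reconstituted minus knockout was negative for 8 of 8 fibroblast markers (median -0.55), 4 of 4 red blood cell markers (-1.76) and 5 of 6 epithelial markers (-0.24). It was also negative for 6 of 6 macrophage (-0.25), 3 of 4 neutrophil (-1.02), 3 of 5 endothelial (-0.14) and 3 of 5 T cell markers (-0.01). For 7 of 7 muscle markers it was positive (0.92). In the interaction, 8 of 8 fibroblast markers (median -0.27) and 3 of 5 endothelial markers (-0.03) were negative. Positive there were 6 of 6 macrophage markers (0.37), 4 of 4 neutrophil markers (1.10) and 4 of 5 T cell markers (0.84). So were 4 of 4 red blood cell markers (0.51), 4 of 6 epithelial markers (0.31) and 5 of 7 muscle markers (0.57). Their part in the differences of the checkpoint genes and of the 4 lists was not tested.

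The genes with the smallest p in the averaged effects are given by name, and none passed. In the network, the MIS12 complex genes Pmf1 and Nsl1 had averaged inhibitor differences of 0.29 ± 0.11 and 0.18 ± 0.09, while Incenp, the Aurora B scaffold, and Haspin, the kinase that marks centromeric histone H3 for it, had averaged MAVS differences of 0.21 ± 0.07 and 0.27 ± 0.09 (edgeR adjusted p = 0.175 and 0.183). Of the APC/C, the coactivator gene Fzr1 and the RING subunit gene Anapc11 had averaged inhibitor differences of 0.15 ± 0.05 and 0.29 ± 0.12, and Anapc4 and Anapc5 had averaged MAVS differences of -0.11 ± 0.05 and -0.06 ± 0.04. Of the mitotic genes, Cenpa (centromeric histone) and Ccnb2 (cyclin B2) had averaged inhibitor differences of 0.25 ± 0.10 and 0.16 ± 0.08, and Cdca3 and Nusap1 had averaged MAVS differences of 0.23 ± 0.07 and 0.14 ± 0.08. Of S phase, the replication genes Cdc45 and Gins1 had averaged inhibitor differences of 0.18 ± 0.09 and 0.19 ± 0.12, and Mcm5 and Cdc6 had averaged MAVS differences of 0.35 ± 0.10 and 0.31 ± 0.10 (edgeR adjusted p = 0.130 and 0.172). Mki67, a proliferation marker of the mitosis list, was named outside the choice by smallest p, and edgeR did not call it in any comparison. It averaged 198 ± 35.0 CPM in reconstituted inhibitor-treated and 314 ± 65.7 CPM in reconstituted control tumours. In knockout tumours the averages were 243 ± 34.7 CPM with the inhibitor and 203 ± 2.47 CPM in controls (SD, n = 3 for each group). Under the inhibitor in reconstituted tumours, log2 differences of the 24 genes of this list ran from -0.67 to 0.42, with Mki67 at the low end. Their median was -0.17, so 1 gene does not stand for the list.

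Reads of Mad1l1 and Cdc20 could in part belong to a neighbour on the opposite strand, as 37 exon bases of Mad1l1 (1.40%) lie in the antisense gene Gm16121 and 53 of Cdc20 (2.96%) lie in Elovl1, and no source used here gives whether counting used strand. The other 7 genes overlap no exon of another gene in the annotation used.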

How the data were processed

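RNA was measured in 12 libraries of bulk tumour RNA by RNA-seq of polyadenylated RNA with stranded libraries, per the labels' protocols. The submitters' processing notes name Trimmomatic, HISAT2, StringTie and GRCm38 (mm10), without versions or roles. The authors deposited raw counts as whole numbers for each gene in each library, and the values carry no sign of scaling. No source used here gives how reads were assigned to genes and strands.

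From the counts, all 12 libraries were fitted with a mean per group in edgeR 4.0.16 (quasi-likelihood F-test, TMM factors of 0.920 to 1.03, filterByExpr), with Benjamini-Hochberg adjustment over 17885 genes and calls at an adjusted p below 0.05. CPM used TMM library sizes, and log2 CPM a prior count of 2. The edgeR test was checked on simulated counts with changes set in the reconstituted inhibitor-treated libraries. These counts held no length trend, so the check does not cover one. Exon lengths came from GENCODE M21 transcripts on GRCm38 and promoter windows from RefSeq GRCm38.p6. The fits were run in R 4.3.3 with limma 3.58.1 loaded, and DESeq2 1.42.0 was used for an alternative.

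The 9 members and the lists were chosen with earlier results of these data known. All members were named in every comparison. Of the 4 pathway lists, the called genes were to be named, or, with none called, the 2 with the smallest p in each averaged effect. Mki67 was named besides these. Marker lists were given by counts. Alternatives were other size factors, no filter, DESeq2, a replicate block and each library left out. Added after seeing the data were the omission of both libraries at the ends of the leading axis and the exon length offset. Its trend was fitted on genes with a mean log2 CPM over 1, of which 93.2% had a length. Of the 17885 genes tested 14865 had one, and the others took the offset at the median length.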

Additional observations from a re-analysis of the deposited data

How the results depend on the processing

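No member was called with RLE size factors, without the low-count filter, with DESeq2, with a replicate block, with the exon length offset or with both libraries at the ends of the leading axis left out. Of 63 member results, 1 changed sign with RLE size factors, no filter, DESeq2 or the replicate block: without the filter the Mad2l1 interaction was -0.000138. With both end libraries left out, signs changed for Aurkb in the reconstituted inhibitor effect (-0.040), for Ttk (0.043), Bub1b (0.012) and Sgo1 (-0.013) in the averaged inhibitor effect, and for Ttk in the MAVS effect under inhibition (0.00949). They also changed for Cdc20 in the MAVS effect in controls (0.065), Bub3 (-0.046) and Mad1l1 (-0.016) in the averaged MAVS effect, and Mad2l1 in the interaction (-0.079). With the length offset they changed for Mad2l1 (-0.064), Cdc20 (-0.068) and Aurkb (-0.081) in the reconstituted inhibitor effect and for Bub1b in the averaged inhibitor effect (0.024). The others were Mad2l1 (-0.014) in the MAVS effect under inhibition, Cdc20 (0.10) in that in controls and Mad2l1 (-0.23) in the interaction. The cause was not tested, and none of these results passed the threshold in either fit. Ttk relative to S phase genes in place of mitotic genes was -0.043 (reconstituted minus knockout, exact permutation p = 0.605).

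DESeq2 called 3490, 3 and 1 genes for the inhibitor in reconstituted tumours, in knockout tumours and averaged, 1175, 719 and 963 for MAVS under inhibition, in controls and averaged, and 1238 for the interaction. edgeR with the replicate block called 43 (MAVS under inhibition) and 15 (MAVS in controls), without both end libraries 23 (MAVS under inhibition) and 170 (MAVS averaged), and with the length offset 241, 60 and 540 (MAVS under inhibition, in controls and averaged). Deviations of same-numbered libraries from different groups correlated at r from -0.11 to 0.31, and those of differently numbered libraries at r from -0.37 to 0.34. The main fit used no pairing, and these values cannot decide whether the numbers mark a pairing or a shared batch.

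With each library left out in turn, genes called ranged from 0 to 5683 (inhibitor, reconstituted), 0 to 3 (inhibitor, averaged), 0 to 2816 (MAVS under inhibition), 0 to 80 (MAVS in controls), 115 to 331 (MAVS averaged) and 0 to 4005 (interaction), the highest without reconstituted inhibitor-treated library 3 in all but MAVS averaged. Members called ranged from 0 to 1 in the reconstituted inhibitor effect and the interaction. Signs changed for 17 of 63 member results: Aurkb -0.0030 to 0.14 (inhibitor, reconstituted), Bub3 -0.024 to 0.087 (inhibitor, knockout), Ttk -0.065 to 0.038, Bub1 -0.097 to 0.046, Bub1b -0.060 to 0.071 and Sgo1 -0.028 to 0.094 (inhibitor, averaged), Ttk -0.14 to 0.0094, Cdc20 -0.15 to 0.028 and Aurkb -0.074 to 0.021 (MAVS under inhibition), Cdc20 -0.089 to 0.062 (MAVS in controls), Bub1 -0.047 to 0.096, Bub3 -0.039 to 0.066, Mad1l1 -0.029 to 0.072, Cdc20 -0.086 to 0.0086 and Sgo1 -0.026 to 0.096 (MAVS averaged), Mad2l1 -0.054 to 0.076 and Cdc20 -0.15 to 0.039 (interaction). Ttk relative to mitotic genes ranged from -0.063 to 0.019 (inhibitor) and -0.027 to 0.055 (MAVS). With 3 libraries per group and an SE of 0.13, log2 differences of the size seen for Ttk could not be told from 0.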
